A study of Mus musculus with 7 samples.

Results

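The 150 genes described here were chosen by their levels in the 7 libraries of the series: they were the genes that stood highest in both libraries of Oct4GFP- cells relative to every other library. A gene was a candidate if its level was at least 10 TPM (transcript abundance corrected for length, which sums to the same total in every library) in both mES-Oct4GFP- and 5C-Oct4GFP- cells, which 9214 of the 29267 genes in the tables were. Each candidate was scored by the smaller of its Oct4GFP- levels minus its highest level in the other 5 libraries, on the log2(TPM + 1) scale, and the 150 highest scores were kept, 1.63% of the candidates. Every difference between an Oct4GFP- library and the others was therefore fixed by the choice and is given as a description. The working name of the set calls these genes confined to the Oct4GFP- libraries, which held literally for few of them: 7 of the 150 were under 1 TPM in all 5 other libraries, and 51 reached 10 TPM in at least 1 of them.

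The study reprogrammed mouse embryonic fibroblasts (MEFs) of OG2 mice, which carry an EGFP transgene under the Oct4 promoter and distal enhancer, by retroviral delivery of c-Myc, Klf4, Oct4 and Sox2. The cells were kept in serum-containing mES medium with LIF and vitamin C or in serum-free 5C medium (N2, bFGF, vitamin C, LIF and β-mercaptoethanol). On day 15 they were sorted by FACS by their EGFP signal, without passaging, into Oct4GFP+ and Oct4GFP- fractions. The fractions are named after the medium (mES-Oct4GFP+ and so on). The other 3 libraries were 5C-Oct4GFP+ cells kept for 20 passages in naive or primed medium, called 5C-Oct4GFP+ (naive) and 5C-Oct4GFP+ (primed), and R1 ESCs-primed, a mouse embryonic stem cell line brought to the primed state on MEF feeder cells and then kept on serum-coated plates with CHIR99021 and IWR-1 for 20 passages. All 4 sorted populations and the 2 converted ones thus came from transgenic MEFs exposed to the 4 retroviruses. How many of these cells took up each virus is not known here. R1 ESCs-primed are not labelled as carrying the transgene or the viruses. A gate on the reporter takes every cell that lacks it, so an Oct4GFP- library can hold several kinds of cells, and the MEFs themselves were a mixture from embryos without the head and internal organs. Each group was 1 library with 6108252 to 11496615 estimated reads, so the spread between cultures is unknown and no test was made, and the intervals given below cover counting error only. In bulk RNA, fewer cells of a type and less RNA per cell cannot be told apart.

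As background, fibroblasts that receive the 4 factors lose their own expression programme and gain that of epithelial and then pluripotent cells, and many stop on the way, as fibroblasts, as partly reprogrammed cells or as cells of other kinds, without switching on an Oct4 reporter. Fibroblasts make collagens and other matrix proteins, assemble contractile actin filaments and caveolae, and carry surface proteins such as CD44, and spread epithelial cells share many calcium-binding S100 proteins, annexins and EMP proteins with them. Many genes of these groups are low in pluripotent stem cells, but not all. The S100 gene S100a11, for example, stood at 368.55 TPM in mES-Oct4GFP+ cells.

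In the 2 libraries that chose them, the members reached a median of 63.12 TPM in mES-Oct4GFP- cells and 39.92 TPM in 5C-Oct4GFP- cells. Their levels summed to 25973.2 TPM, or 2.6% of all TPM, in mES-Oct4GFP- cells and to 13921.7 TPM, or 1.39%, in 5C-Oct4GFP- cells. In the other libraries the sum was 2259.7 TPM in 5C-Oct4GFP+ cells, 1284.5 TPM in R1 ESCs-primed, 980.7 TPM in 5C-Oct4GFP+ (primed), 410.7 TPM in mES-Oct4GFP+ and 309.4 TPM in 5C-Oct4GFP+ (naive). The 5 other libraries stood in the same order by the median, which was 4.42 TPM in 5C-Oct4GFP+, 2.37 TPM in R1 ESCs-primed, 2.01 TPM in 5C-Oct4GFP+ (primed), 1.1 TPM in mES-Oct4GFP+ and 0.79 TPM in 5C-Oct4GFP+ (naive). Where a pair of Oct4GFP- values is given below, that of mES medium comes first. The scores ran from 4.77, a 27.4-fold step, through a median of 2.24 to 1.76, a 3.39-fold step, whereas the median score of all candidates was -0.42. At the lower edge of the set the last 3 members were Nhsl1, Osmr and Plekha6, with scores of 1.78, 1.77 and 1.76, and the first 3 genes left out were Ackr3, Rap1gap2 and Gna14, with 1.76, 1.75 and 1.75, so that no gap separates members from non-members.

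**Figure D1:**
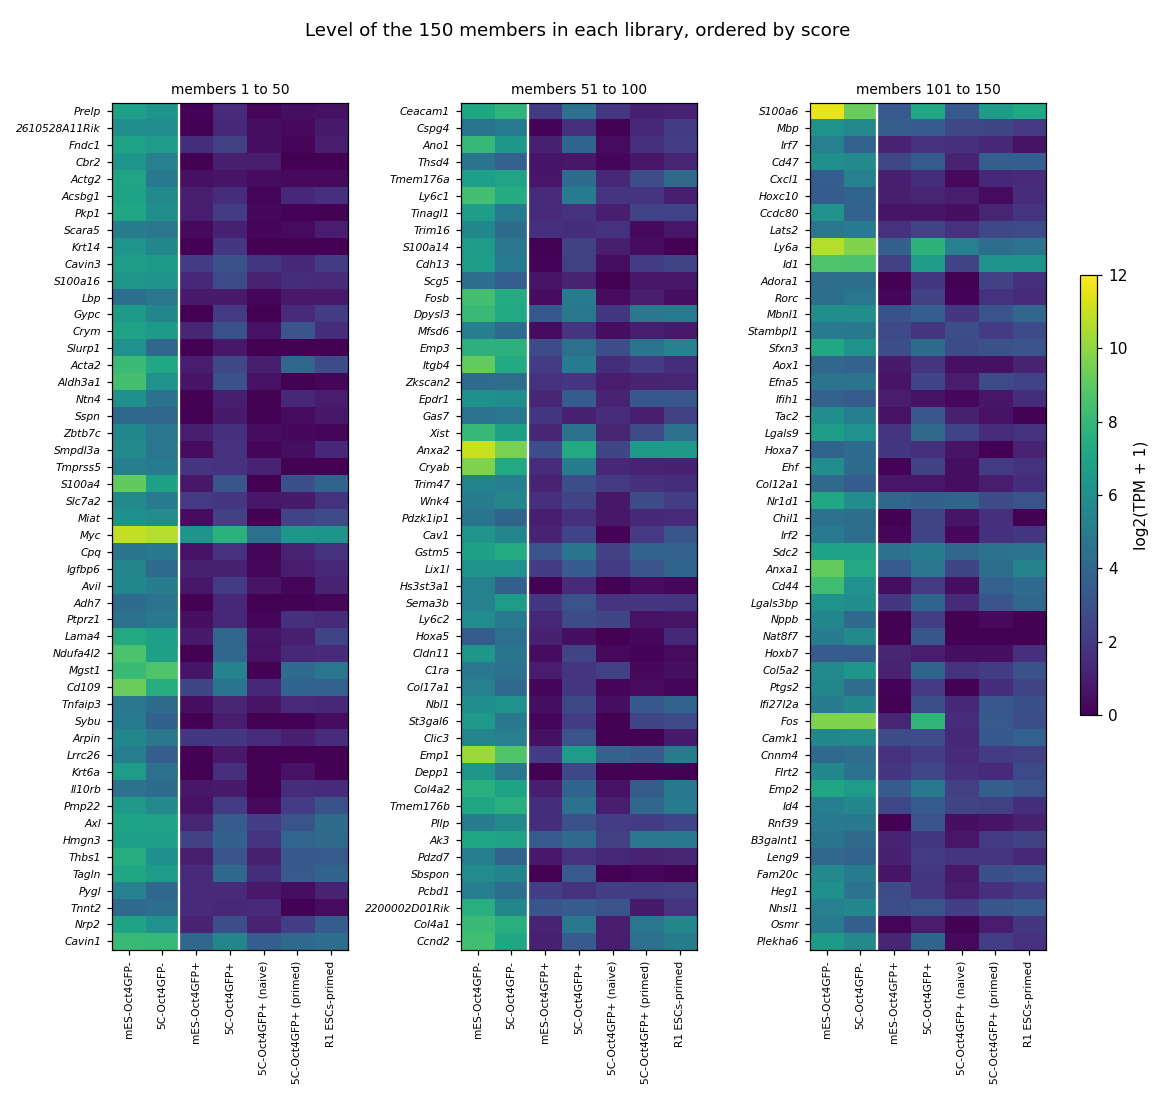
Levels of the 150 members (rows, in order of score) in the 7 libraries (columns, 1 library each), as log2(TPM + 1) by colour; the white line separates the 2 Oct4GFP- libraries on the left from the other 5. Every row is brightest on the left, and the 5C-Oct4GFP+ and primed columns are brighter than the mES-Oct4GFP+ and naive columns for genes such as Anxa2, S100a6 and Id1.

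All 150 members were past 2-fold higher in mES-Oct4GFP- than in mES-Oct4GFP+ cells, where 28.8% of the 16294 genes detected in either were, and all 150 in 5C-Oct4GFP- against 5C-Oct4GFP+ cells, where 22.6% of 15675 genes were. Both counts follow from the choice. The median difference of the members was 4.81 on the log2 scale in mES medium and 2.71 in 5C medium. The members kept a median of 1.45% of their mES-Oct4GFP- level in mES-Oct4GFP+ cells and 12.5% of their 5C-Oct4GFP- level in 5C-Oct4GFP+ cells.

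The 20 members with the highest scores were led by Prelp, a small leucine-rich proteoglycan of basement membranes and cartilage. Prelp stood at 109.48 and 73.68 TPM in the Oct4GFP- libraries, 1.73 in 5C-Oct4GFP+, 0.44 in R1 ESCs-primed, 0.37 in 5C-Oct4GFP+ (primed), 0.12 in 5C-Oct4GFP+ (naive) and 0.08 in mES-Oct4GFP+. The pair of Oct4GFP- libraries stood far above the rest, of which 5C-Oct4GFP+ was the highest. Fndc1, a fibronectin type III domain protein, followed the same order at the top, with 124.52 and 93.58 TPM in the Oct4GFP- libraries, 3.8 in 5C-Oct4GFP+, 1.99 in mES-Oct4GFP+, 0.9 in R1 ESCs-primed, 0.4 in 5C-Oct4GFP+ (naive) and 0.17 in 5C-Oct4GFP+ (primed). The lipopolysaccharide-binding protein gene Lbp was among the least abundant of the 20, with 19.51 and 25.66 TPM in the Oct4GFP- libraries, and did not exceed 0.84 TPM elsewhere. The 20 also held enzymes, among them the carbonyl reductase Cbr2, the fatty acyl-CoA synthetase Acsbg1 and the aldehyde dehydrogenase Aldh3a1. Aldh3a1 stood at 350.84 and 69.87 TPM in the Oct4GFP- libraries and 6.91 TPM in 5C-Oct4GFP+ cells and at 0.55 TPM or less in the other 4 libraries. The rest of the 20 were 2610528A11Rik, the ferritin receptor Scara5, the thyroid hormone-binding crystallin Crym, the glycophorin Gypc, the netrin Ntn4, the sarcospan gene Sspn, the zinc finger gene Zbtb7c and the genes Actg2, Pkp1, Krt14, Cavin3, S100a16, Slurp1 and Acta2, described with their groups.

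A group that stood whole among the members was the EMP and PMP22 family of membrane-spanning growth-arrest proteins, whose 4 genes were all chosen. This and the other families below were taken by name after the members were seen. Emp1 stood at 1169.71 and 432.08 TPM in the Oct4GFP- libraries, 97.89 in 5C-Oct4GFP+, 32.0 in R1 ESCs-primed, 13.11 in 5C-Oct4GFP+ (naive), 9.96 in 5C-Oct4GFP+ (primed) and 3.4 in mES-Oct4GFP+. Emp3 was nearly equal in the pair of Oct4GFP- libraries, at 208.32 TPM in mES medium and 207.07 TPM in 5C medium, and reached 39.02 TPM in R1 ESCs-primed, the highest of the other 5. Pmp22, the peripheral myelin protein gene, stood at 87.39 and 49.79 TPM and Emp2 at 131.45 and 99.58 TPM. Of the 4, Emp1 alone was past 2-fold apart between the Oct4GFP- libraries.

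Caveolae, the flask-shaped pits of the plasma membrane, are built from caveolins and cavins. Of their 7 genes, 4 were candidates, of which Cav1, Cavin1 and Cavin3 were members and Cav2 was not, at 16.31 and 16.08 TPM in the Oct4GFP- libraries but 5.71 TPM in R1 ESCs-primed. Cavin1, the most abundant, stood at 273.01 and 262.37 TPM in the Oct4GFP- libraries, 42.97 in 5C-Oct4GFP+, 19.32 in R1 ESCs-primed, 16.37 in 5C-Oct4GFP+ (primed), 14.67 in mES-Oct4GFP+ and 11.02 in 5C-Oct4GFP+ (naive). Cavin3 stood at 102.05 and 93.3 TPM and did not exceed 6.92 TPM elsewhere. None of the 4 caveolar candidates was past 2-fold apart between the Oct4GFP- libraries, and the ratio of 5C-Oct4GFP- to mES-Oct4GFP- for Cavin1 was 0.961 (95% interval 0.919 to 1.0).

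Calcium-binding proteins led the members in mES-Oct4GFP- cells. S100a6 stood at 3114.1 and 588.93 TPM in the Oct4GFP- libraries, 143.78 in 5C-Oct4GFP+, 139.71 in R1 ESCs-primed, 97.74 in 5C-Oct4GFP+ (primed), 9.3 in mES-Oct4GFP+ and 9.18 in 5C-Oct4GFP+ (naive). Its mES-Oct4GFP- level was the highest of any member in any library. Anxa2, an annexin that binds membranes and S100a10, stood at 2035.7 and 756.57 TPM in the Oct4GFP- libraries, 153.07 in 5C-Oct4GFP+, 89.63 in R1 ESCs-primed, 85.95 in 5C-Oct4GFP+ (primed), 6.34 in mES-Oct4GFP+ and 4.69 in 5C-Oct4GFP+ (naive). Of the 8 S100 candidates 4 were members (S100a4, S100a6, S100a14 and S100a16), and of the 9 annexin candidates 2 (Anxa1 and Anxa2). S100a16, of the 20 highest scores, stood at 79.72 and 73.81 TPM and did not exceed 5.5 TPM elsewhere. Some genes of these families outside the set also stood high in the Oct4GFP- libraries. S100a11, at 1875.39 and 886.04 TPM, was left out for its 552.34 TPM in 5C-Oct4GFP+ cells. Anxa5, at 272.89 and 290.75 TPM, was left out for its 119.89 TPM in R1 ESCs-primed.

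**Figure D2:**
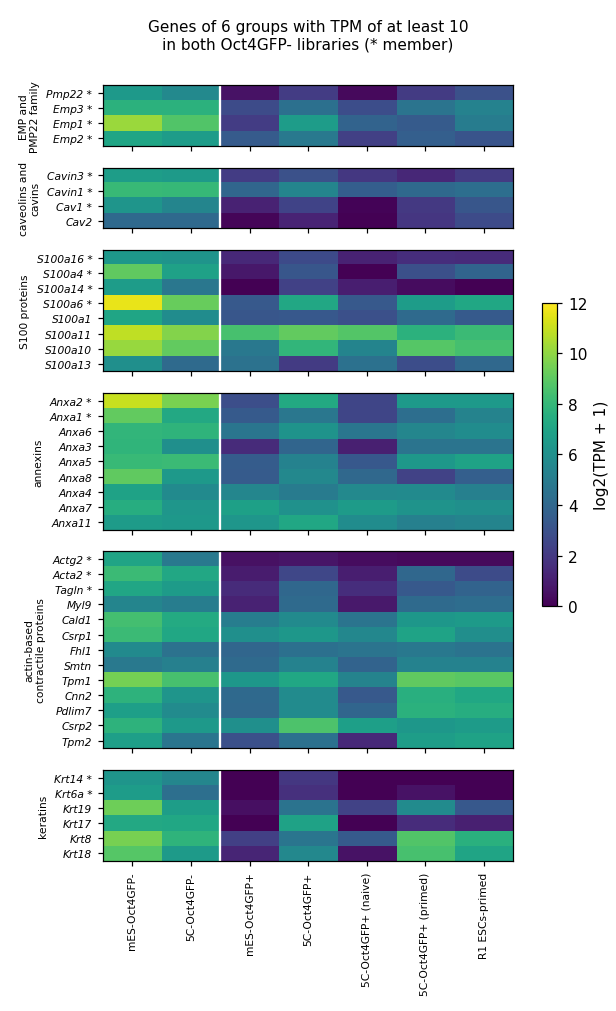
Levels of the genes of 6 groups that had at least 10 TPM in both Oct4GFP- libraries, as log2(TPM + 1) by colour in the 7 libraries; within each group genes run from the highest to the lowest score and members carry a star. All 4 EMP and PMP22 genes are members, whereas non-members such as Tpm1 and Krt8 are at least as bright in the 5C-Oct4GFP+ (primed) column as in the 5C-Oct4GFP- one.

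The smooth-muscle type contractile genes Acta2, Actg2 and Tagln were the 3 members among 13 candidates of the actin-based contractile list. Acta2, the alpha smooth muscle actin of myofibroblasts, stood at 286.13 and 145.14 TPM in the Oct4GFP- libraries, 15.17 in 5C-Oct4GFP+ (primed), 5.78 in R1 ESCs-primed, 4.92 in 5C-Oct4GFP+, 0.99 in 5C-Oct4GFP+ (naive) and 0.88 in mES-Oct4GFP+. Actg2, the gamma actin of enteric smooth muscle, stood at 128.64 and 27.51 TPM in the Oct4GFP- libraries and at 0.58 TPM or less in the others, the lowest share left in any other library of all members (2.11%). Tagln, which encodes the actin-binding protein transgelin, stood at 135.74 and 96.02 TPM and reached 15.05 TPM in 5C-Oct4GFP+ cells. Tpm1, Cnn2 and Pdlim7 of the same list were not members and stood at 528.93, 189.77 and 204.89 TPM in 5C-Oct4GFP+ (primed), in each case above their 5C-Oct4GFP- level.

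Stratified-epithelium genes were also present, with 4 members among the 11 candidates of their list. Krt14, a keratin of basal epidermal cells, stood at 75.35 and 44.83 TPM in the Oct4GFP- libraries and 2.82 TPM in 5C-Oct4GFP+ cells and had no reads in the other 4 libraries, where 3 reads would have given 0.674 TPM in mES-Oct4GFP+ and 0.583 TPM in R1 ESCs-primed. Krt6a, a keratin of stressed epithelium, stood at 99.04 and 19.92 TPM in the Oct4GFP- libraries and at 2.12 TPM or less elsewhere. Pkp1, a desmosomal plakophilin, stood at 132.71 and 61.54 TPM, and S100a14 at 99.3 and 26.3 TPM. Slurp1, a secreted Ly6-type protein of keratinocytes, was a member outside this list, at 66.52 and 14.71 TPM and at 0.71 TPM or less elsewhere. For all 4 on the list the highest of the other libraries was 5C-Oct4GFP+. Krt17 of the list, at 148.92 and 138.79 TPM, was left out for its 120.56 TPM in 5C-Oct4GFP+ cells. Of the 27 genes of the list detected in either Oct4GFP- library, 12 were past 2-fold lower in 5C-Oct4GFP- cells and 4 higher. Over all detected genes these shares were 10.1% and 9.68%. Non-members among the higher ones were the keratin Krt5 (2.41 and 43.81 TPM), Ly6d (10.14 and 198.07 TPM) and Lgals7 (69.3 and 771.6 TPM). Other epithelial genes were members outside this list, among them Itgb4, the hemidesmosomal integrin, at 555.04 and 159.01 TPM, and Col17a1, a hemidesmosomal collagen, at 36.74 and 16.05 TPM. The simple-epithelium list, with 18 candidates, held no member, which is near the share of 1.63% over all candidates. Krt8 of that list, at 748.47 and 221.04 TPM in the Oct4GFP- libraries, stood at 433.85 TPM in 5C-Oct4GFP+ (primed).

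The promoters of 6 members are shown because these genes carry the groups above or differ most between the media: S100a4 and Anxa2 for the calcium-binding proteins, Acta2 for the contractile genes, Pmp22 for its family, Fos for the AP-1 genes and Cxcl1 for the largest difference in favour of 5C-Oct4GFP- cells. Each is the 250 bases before the start site in RefSeq on GRCm38.p6, written 5′ to 3′ on the strand of the gene. Capitals mark matches on either strand to the TATA box (TATAAA), the AP-1 site (TGANTCA), the TEAD site (GGAATG) or the NF-kB site, as named for each gene.
With the TATA box in capitals, S100a4, chr3:90603520-90603769, plus strand: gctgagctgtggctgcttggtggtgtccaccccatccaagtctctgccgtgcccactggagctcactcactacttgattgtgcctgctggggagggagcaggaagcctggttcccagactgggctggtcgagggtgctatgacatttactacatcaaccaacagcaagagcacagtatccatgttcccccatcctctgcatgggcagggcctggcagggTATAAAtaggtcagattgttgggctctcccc
With the AP-1 site and then the TATA box in capitals, Anxa2, chr9:69453433-69453682, plus strand: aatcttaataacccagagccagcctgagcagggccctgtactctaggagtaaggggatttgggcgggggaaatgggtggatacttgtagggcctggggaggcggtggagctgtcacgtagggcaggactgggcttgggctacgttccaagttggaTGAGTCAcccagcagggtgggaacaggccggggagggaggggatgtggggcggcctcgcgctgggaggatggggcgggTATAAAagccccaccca
With the TEAD site in capitals, Acta2, chr19:34255374-34255623, minus strand: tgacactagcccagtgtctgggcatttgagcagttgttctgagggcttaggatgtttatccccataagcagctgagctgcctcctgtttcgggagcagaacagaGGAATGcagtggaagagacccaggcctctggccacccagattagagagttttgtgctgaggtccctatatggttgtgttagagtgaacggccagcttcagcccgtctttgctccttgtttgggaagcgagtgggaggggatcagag
With the TEAD site, read on the other strand, in capitals, Pmp22, chr11:63128732-63128981, plus strand: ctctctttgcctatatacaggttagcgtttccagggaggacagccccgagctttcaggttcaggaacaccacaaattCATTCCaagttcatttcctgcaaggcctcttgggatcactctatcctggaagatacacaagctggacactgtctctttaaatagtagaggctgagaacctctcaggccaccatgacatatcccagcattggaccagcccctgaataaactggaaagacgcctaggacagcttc
With the NF-kB site on the other strand and then the TATA box in capitals, Fos, chr12:85473640-85473889, plus strand: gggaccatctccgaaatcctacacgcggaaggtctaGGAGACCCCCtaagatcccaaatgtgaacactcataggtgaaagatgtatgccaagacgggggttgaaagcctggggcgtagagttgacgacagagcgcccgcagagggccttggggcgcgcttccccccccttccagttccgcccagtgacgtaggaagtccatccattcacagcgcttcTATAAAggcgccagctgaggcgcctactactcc
With 2 overlapping NF-kB matches, 1 on each strand, in capitals, Cxcl1, chr5:90890995-90891244, plus strand: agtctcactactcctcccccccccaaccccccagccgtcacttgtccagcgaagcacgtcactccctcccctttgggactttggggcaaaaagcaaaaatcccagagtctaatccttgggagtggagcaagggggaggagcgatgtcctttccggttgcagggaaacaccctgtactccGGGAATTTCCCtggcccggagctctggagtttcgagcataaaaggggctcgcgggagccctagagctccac
The AP-1 motif matches the marked stretch of Anxa2 on both strands, and no capital stretch in these 6 overlaps a match of another of these 4 motifs. Of 18460 promoters of the same length, 11.7% held the TATA box, 6.2% the AP-1 site, 11.7% the TEAD site and 7.74% the NF-kB site on either strand. A match is a run of letters and not a measured binding site. RefSeq promoters were found for 105 of the 150 members (70%), under the 80% set for a check over the whole set, so that a comparison of motifs or base composition between members and other genes was void and is not given.

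The FOS and JUN genes, which encode subunits of the AP-1 transcription factor, gave 2 members of 6 candidates. Fos stood at 815.25 and 820.89 TPM in the Oct4GFP- libraries, 227.84 in 5C-Oct4GFP+, 9.05 in 5C-Oct4GFP+ (primed), 6.37 in R1 ESCs-primed, 1.87 in 5C-Oct4GFP+ (naive) and 1.33 in mES-Oct4GFP+. It was nearly equal in both Oct4GFP- libraries and, of all 150 members, the one with the largest difference between the Oct4GFP+ libraries, 6.62 in favour of 5C medium on the log2(TPM + 1) scale. Fosb stood at 344.03 and 165.29 TPM and at 30.24 TPM in 5C-Oct4GFP+ cells. Jun, at 294.1 and 337.11 TPM, was not a member, with 108.01 TPM in 5C-Oct4GFP+ cells. Id1 and Id4, inhibitors of basic helix-loop-helix factors, were members as well, at 414.17 and 390.61 TPM for Id1 and 35.57 and 46.5 TPM for Id4.

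Of the 4 reprogramming factors, Myc was a member. Myc stood at 1883.88 and 1622.18 TPM in the Oct4GFP- libraries, 211.49 in 5C-Oct4GFP+, 79.65 in 5C-Oct4GFP+ (primed), 74.08 in R1 ESCs-primed, 74.04 in mES-Oct4GFP+ and 20.62 in 5C-Oct4GFP+ (naive). Because c-Myc was delivered by retrovirus, the endogenous and the viral transcript cannot be told apart in these counts. Klf4, at 1613.31 and 1511.72 TPM in the Oct4GFP- libraries and 521.92 TPM in 5C-Oct4GFP+ cells, ranked 209th, outside the set. Pou5f1 and Sox2 ranked 5873rd and 2068th. Pou5f1, the Oct4 gene itself, which was also delivered, stood at 3640.4 and 1533.95 TPM in the Oct4GFP- libraries and at 1321.12 and 2428.76 TPM in the Oct4GFP+ libraries of the same media, so that it followed the order of the reporter used for the sort in 5C medium and the opposite order in mES medium. Nanog, a pluripotency gene that was not delivered, stood at 17.11 and 119.5 TPM in the Oct4GFP- libraries and at 696.74 and 252.93 TPM in the Oct4GFP+ libraries of the same media.

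Matrix genes gave 7 members of the 74 candidates in the 6 matrix lists, or 9.46%, beside 1.63% of all candidates. These lists are not particular to fibroblasts and also hold basement-membrane and hemidesmosomal chains such as Col4a1 and Col17a1. Of 15 collagen candidates the members were Col4a1, Col4a2, Col5a2, Col12a1 and Col17a1, and the others were Prelp and Thbs1, which encodes the adhesive glycoprotein thrombospondin. Col4a1, a basement-membrane collagen chain, stood at 289.01 and 190.93 TPM in the Oct4GFP- libraries, 45.91 in R1 ESCs-primed, 25.62 in 5C-Oct4GFP+, 25.31 in 5C-Oct4GFP+ (primed), 1.24 in mES-Oct4GFP+ and 0.94 in 5C-Oct4GFP+ (naive). Its partner chain Col4a2, on the opposite strand of the same promoter region, followed it at 193.08 and 125.08 TPM in the Oct4GFP- libraries and 28.16 TPM in R1 ESCs-primed. The laminin chain Lama4, of the same basement membranes, stood at 153.47 and 107.94 TPM. The collagen-modifying enzymes, elastic-fibre proteins and matrix proteases, with 17, 11 and 12 candidates, held no member, counts too small to differ visibly from the share of 1.63%.

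The major interstitial collagens were not members and were high in R1 ESCs-primed too. Col3a1 stood at 140.37 and 71.66 TPM in the Oct4GFP- libraries, 71.31 in R1 ESCs-primed, 19.3 in 5C-Oct4GFP+ (primed), 2.23 in mES-Oct4GFP+, 2.0 in 5C-Oct4GFP+ (naive) and 1.78 in 5C-Oct4GFP+. The level in R1 ESCs-primed was thus close to that in 5C-Oct4GFP- cells, and Col1a1 was alike, at 159.58 and 44.96 TPM in the Oct4GFP- libraries and 40.52 in R1 ESCs-primed. Of the 15 fibroblast markers 9 were candidates and none was a member. Their summed level was 3518.7 and 3602.3 TPM in the Oct4GFP- pair, 1622.3 TPM in R1 ESCs-primed and 820.4 to 1086.9 TPM in the other 4 libraries. Vim and Fn1, which encode vimentin and fibronectin, made up most of these sums. Without them the other 13 markers summed to 641.4 and 303.0 TPM in the Oct4GFP- pair, 293.7 TPM in R1 ESCs-primed, 100.4 TPM in 5C-Oct4GFP+ (primed) and 14.8 to 18.7 TPM in the rest. None of the 15 was at 0 in R1 ESCs-primed and 11 reached 10 TPM there, as in mES-Oct4GFP- cells. The primed state was induced on MEF feeder cells, and their part in these levels was not tested. With R1 ESCs-primed left out of the score, 113 of the 150 genes were chosen again, and the matrix lists then gave 14 genes, the entrants being Col6a1, Col6a2, Fbn1, Ltbp3, Fbln2, Thbs2, Timp3 and Postn. Col1a1, Col1a2 and Col3a1 did not enter, and stood at 13.32, 19.85 and 19.3 TPM in 5C-Oct4GFP+ (primed).

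**Figure D3:**
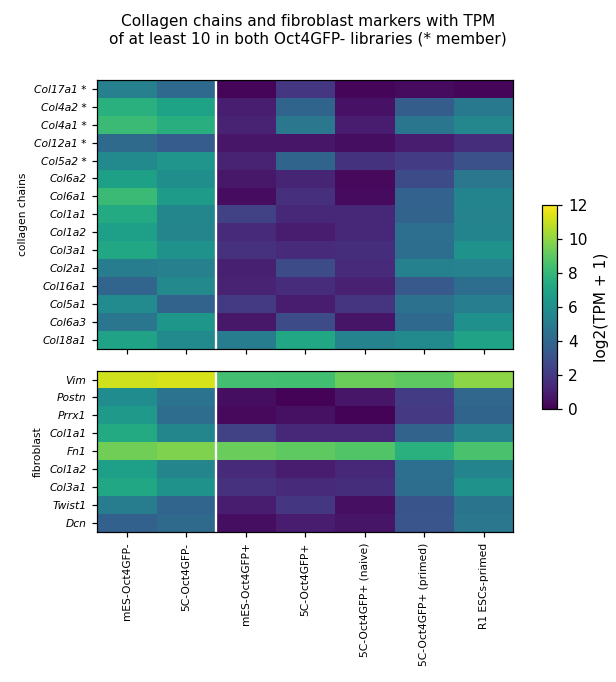
Levels of the collagen chains and fibroblast markers that had at least 10 TPM in both Oct4GFP- libraries, as log2(TPM + 1) by colour in the 7 libraries; a star marks a member. Col1a1, Col1a2 and Col3a1 are dark in both Oct4GFP+ libraries and the naive one but nearly as bright in R1 ESCs-primed as in 5C-Oct4GFP- cells.

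Fibroblast surface and adhesion proteins gave 7 members of 19 candidates, or 36.8%, beside 1.63% of all candidates. This was the largest number of any role list but not the largest share, which was 50% for the Hox genes. Ly6a, the stem-cell antigen Sca-1, stood at 1603.32 and 845.82 TPM in the Oct4GFP- libraries, 213.22 in 5C-Oct4GFP+, 36.29 in 5C-Oct4GFP+ (naive), 22.62 in R1 ESCs-primed, 18.94 in 5C-Oct4GFP+ (primed) and 11.75 in mES-Oct4GFP+. Cd44, the hyaluronan receptor, stood at 313.69 and 66.95 TPM in the Oct4GFP- libraries, 17.56 in R1 ESCs-primed, 12.5 in 5C-Oct4GFP+ (primed), 3.05 in 5C-Oct4GFP+, 0.38 in 5C-Oct4GFP+ (naive) and 0.36 in mES-Oct4GFP+. Both were higher in the mES than in the 5C library of the Oct4GFP- pair, but the next highest library was 5C-Oct4GFP+ for Ly6a and R1 ESCs-primed for Cd44. The receptor tyrosine kinase Axl was nearly equal in the pair, at 123.83 and 117.86 TPM, with a ratio of 5C to mES of 0.952 (95% interval 0.893 to 1.01), as was the syndecan Sdc2, at 123.83 and 120.14 TPM. The others were the Ly6 antigen Ly6c1, at 337.66 and 168.73 TPM, the cadherin Cdh13, at 104.78 and 28.7 TPM, and the proteoglycan Cspg4 (NG2), at 24.06 and 30.22 TPM. Reads of Ly6a, Ly6c1, Ly6c2, Slurp1, Krt14, Krt6a and 31 other members were in part divided by RSEM between similar transcripts, which left fractional counts in at least 1 Oct4GFP- library.

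Signalling and immune genes were scattered. Cxcl1, a neutrophil chemokine, was 1 of 6 candidates of the chemokine list, Osmr, the oncostatin M receptor, 1 of 9 cytokine receptors, Lbp and the complement protease C1ra 2 of 8 complement and acute-phase genes, and Igfbp6 1 of 6 IGF binding proteins. The BMP antagonist Nbl1 stood at 62.08 and 67.37 TPM in the Oct4GFP- libraries and reached 13.0 TPM in R1 ESCs-primed. Ptgs2, the inducible cyclooxygenase, stood at 44.55 and 18.56 TPM and at 4.45 TPM in R1 ESCs-primed. Of 17 interferon-induced candidates, Irf7 (36.59 and 12.46 TPM) and Ifi27l2a (33.16 and 45.1 TPM) were members. Hoxa5, Hoxa7, Hoxb7 and Hoxc10 were 4 of 8 candidates among the Hox genes, which encode position along the body axis. The lists of growth factors and of mesenchymal transcription factors, with 16 and 17 candidates, held no member, which is near the share over all candidates. Hox levels were low, from 10.36 to 20.52 TPM in the Oct4GFP- libraries for these 4, and did not exceed 2.88 TPM elsewhere.

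Xist, the non-coding RNA that silences an X chromosome, stood at 258.3 and 113.7 TPM in the Oct4GFP- libraries, 22.21 in 5C-Oct4GFP+, 19.61 in R1 ESCs-primed, 5.36 in 5C-Oct4GFP+ (primed), 1.45 in mES-Oct4GFP+ and 1.36 in 5C-Oct4GFP+ (naive). It and Miat, at 63.48 and 54.12 TPM in the Oct4GFP- libraries, were the 2 long non-coding RNAs of the set, and the other 148 members were protein coding. Markers of other differentiated cell types were mostly low. In the Oct4GFP- libraries the sums over the marker lists were 127.7 and 89.2 TPM for 18 macrophage and leukocyte markers, of which 2 and 10 were at 0, 153.7 and 124.5 TPM for 15 endothelial markers, with none at 0, and 69.6 and 68.5 TPM for 18 muscle markers, with 6 at 0 in each. The sums were 79.9 and 58.4 TPM for 14 cartilage and bone markers, 15.9 and 33.1 TPM for 11 adipocyte markers, 61.6 and 250 TPM for 15 markers of neurons and glia, and 47.0 and 9.9 TPM for 10 erythroid markers. Of the 15 neuron and glia markers, 12 were past 2-fold higher in 5C-Oct4GFP- cells and 0 lower. Over all detected genes these shares were 9.68% and 10.1%. The same 15 markers summed to 208.9 TPM in 5C-Oct4GFP+ (naive). The 15 pluripotent cell markers, which include Pou5f1 and Sox2, summed to 4413.1 and 2778.8 TPM in the Oct4GFP- libraries and to 8382.0 and 11088.9 TPM in the Oct4GFP+ libraries of the same media. The cardiac troponin Tnnt2 (15.97 and 19.29 TPM) was the only member on any of these marker lists. Their part in the members' levels was not tested.

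The members were also compared between the 2 media within Oct4GFP- cells. Both values enter the score, and 5C-Oct4GFP+ was the highest other library for 82 members and mES-Oct4GFP+ for 8, so this comparison is not independent of the choice and is a description. The members were on the whole lower in 5C medium: 116 of 150 were below their mES-Oct4GFP- level, the median difference was -0.58 on the log2(TPM + 1) scale, and the median of all candidates was 0.04. Past 2-fold, 48 members were higher in mES-Oct4GFP- cells, where 5.46% of the 9214 candidates were, and 2 in 5C-Oct4GFP- cells, where 4.47% of candidates were. The ratio interval from counts lay below 1 for 95 members, above 1 for 20 and included 1 for 35. Without the 5C-Oct4GFP+ library in the score, the genes chosen numbered 97 of these 150 and 53 others, and 11 genes were past 2-fold higher in the 5C library of the pair and 42 in the mES library.

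**Figure D4:**
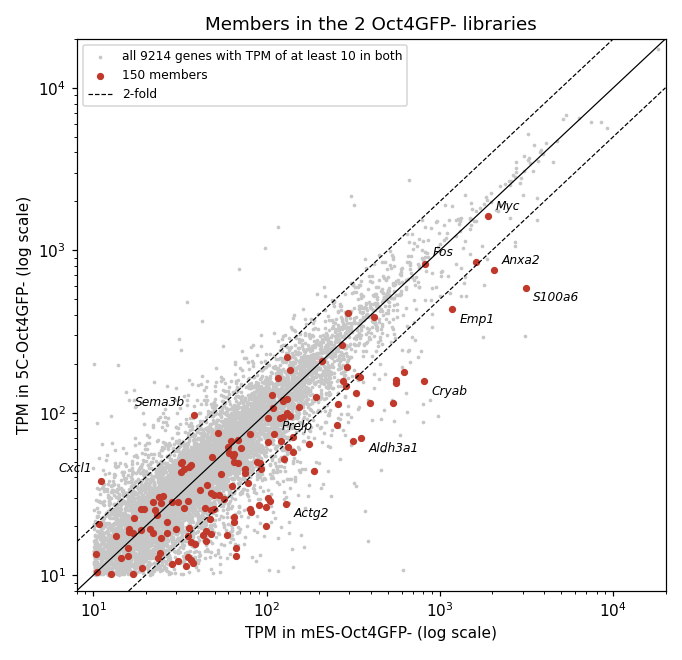
TPM in mES-Oct4GFP- (horizontal) against 5C-Oct4GFP- (vertical) cells, both on log scales, 1 library each; red points are the 150 members, grey points all 9214 genes with at least 10 TPM in both, the solid line is equality and dashed lines are 2-fold. Most red points lie below equality, 48 lie past 2-fold toward mES-Oct4GFP- cells and 2, Cxcl1 and Sema3b, past 2-fold toward the 5C library, as differences of log2(TPM + 1).

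The 6 members furthest toward mES-Oct4GFP- cells were S100a6, the small heat shock protein gene Cryab, Aldh3a1, Krt6a, the matrix protein gene Ccdc80 and Cd44. S100a6 was 5.29-fold higher (95% interval 5.01 to 5.58) in mES-Oct4GFP- cells. Cryab stood at 811.21 and 156.15 TPM in the Oct4GFP- libraries and 31.51 TPM in 5C-Oct4GFP+ cells and at 1.89 TPM or less in the other 4 libraries, a 5.2-fold difference (4.8 to 5.63) between the Oct4GFP- pair. Ccdc80, at 66.06 and 13.1 TPM, differed 5.04-fold (4.26 to 6.0), Aldh3a1 5.02-fold (4.56 to 5.54), Krt6a 4.97-fold (4.24 to 5.85) and Cd44 4.69-fold (4.4 to 5.0). These 6 belong to different groups. Their levels in 5C-Oct4GFP- cells were above those of the 5 libraries outside the pair, as the choice requires of every member.

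The 6 members furthest toward 5C-Oct4GFP- cells were Cxcl1, the semaphorin Sema3b, Hoxa5, the cell adhesion molecule Ceacam1, Nat8f7 and the plasma membrane proteolipid Pllp. Cxcl1 stood at 11.08 and 38.08 TPM in the Oct4GFP- libraries, 1.99 in 5C-Oct4GFP+, 1.77 in R1 ESCs-primed, 1.63 in 5C-Oct4GFP+ (primed), 1.02 in mES-Oct4GFP+ and 0.24 in 5C-Oct4GFP+ (naive). It was 3.44-fold higher (95% interval 2.43 to 4.95) in 5C-Oct4GFP- cells, on 143 reads against 43. Sema3b stood at 37.94 and 96.8 TPM, 2.55-fold (2.28 to 2.86), with 7.48 TPM in 5C-Oct4GFP+ cells as the highest of the rest. Hoxa5 was 1.9-fold higher (1.45 to 2.5), Ceacam1 1.69-fold (1.6 to 1.79), Nat8f7 1.54-fold (1.3 to 1.82) and Pllp 1.53-fold (1.3 to 1.8). Mgst1, a microsomal glutathione transferase, was also higher there, at 412.6 against 293.38 TPM.

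Outside the Oct4GFP- pair, the highest library was 5C-Oct4GFP+ for 82 members, R1 ESCs-primed for 45, 5C-Oct4GFP+ (primed) for 12, mES-Oct4GFP+ for 8 and 5C-Oct4GFP+ (naive) for 3. As a percent of the lower Oct4GFP- level, the members held a median of 13.5% in 5C-Oct4GFP+ (quartiles 8.11 and 19.5), 8.7% in R1 ESCs-primed (2.69 and 17.1), 6.35% in 5C-Oct4GFP+ (primed) (1.63 and 11.3), 2.09% in mES-Oct4GFP+ (0.63 and 6.9) and 1.72% in 5C-Oct4GFP+ (naive) (0.452 and 3.92). The largest remainders were those of Plekha6 (28.0%), Fos (27.9%) and Emp2 (27.6%) in 5C-Oct4GFP+ cells, of Nhsl1 (27.2%) and Anxa1 (26.8%) in R1 ESCs-primed and of Sdc2 (26.6%) in 5C-Oct4GFP+ cells. All 4 stratified-epithelium members were highest in 5C-Oct4GFP+, whereas 4 of the 7 surface-protein members and 3 of the 5 collagens were highest in R1 ESCs-primed.

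**Figure D5:**
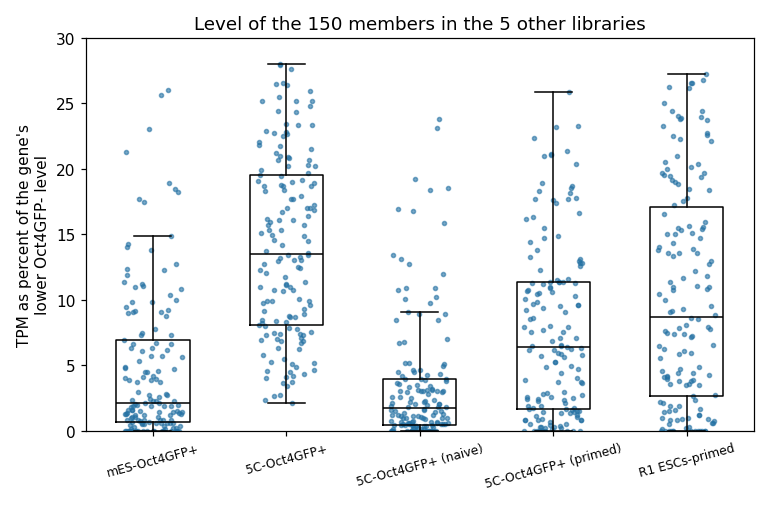
TPM of each of the 150 members in the 5 other libraries as a percent of its lower Oct4GFP- level; points are genes, boxes give the median and quartiles over genes and whiskers reach the last point within 1.5 interquartile ranges. The medians are 13.5% in 5C-Oct4GFP+ and 8.7% in R1 ESCs-primed and 2.09% or less in mES-Oct4GFP+ and 5C-Oct4GFP+ (naive).

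Between the Oct4GFP+ libraries, 136 members had at least 1 TPM in either; 89 members were past 2-fold higher in 5C medium and 0 in mES medium, where 13.7% and 13.5% of the 15196 genes detected were. Over all 150 members the median difference was 1.37 on the log2(TPM + 1) scale. The largest differences after Fos were those of Mgst1 (4.67; 40.35 against 0.62 TPM), Fosb (4.55), Emp1 (4.49) and Anxa2 (4.39), and the members on the other side were led by the heart development gene Heg1 (-0.91; 2.66 against 5.88 TPM). Between the converted libraries, 108 members had at least 1 TPM in either. Of these, 59 were past 2-fold higher in 5C-Oct4GFP+ (primed) and 7 in 5C-Oct4GFP+ (naive), where 22.2% and 16.7% of 15249 genes were. Over all 150 members the median difference was 0.59. The largest were Mgst1 (4.20), Anxa2 (3.93), Col4a1 (3.76), Id1 (3.67), the cyclin Ccnd2 (3.51), Cd44 (3.29) and S100a6 (3.28). Of those higher in naive medium, 2200002D01Rik (7.45 against 0.84 TPM), C1ra (3.88 against 0.18 TPM) and Ly6c2 (4.69 against 0.52 TPM) differed most. These genes were named after their values were seen, and the score had already limited how high any of them could be in these libraries.

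Several members lay side by side in the genome, with coordinates from GENCODE M21 on GRCm38, the assembly also known as mm10. Of the 150, 27 (18%) had another member within 200 kb, in 19 pairs. Among the 9214 candidates, 92.3% had another candidate as near. A set that much larger lies denser, so these shares cannot be compared, and whether members lie closer than other genes was not tested. S100a4 and S100a6 lay 6837 bases apart on chromosome 3, in a stretch that also held S100a14 and S100a16. Acta2 on chromosome 19 lay 757 bases from the deubiquitinase gene Stambpl1, which stood at 28.47 and 28.06 TPM. Col4a1 and Col4a2 on chromosome 8 and the membrane protein genes Tmem176a and Tmem176b on chromosome 6 overlapped at their starts. Tmem176b stood at 136.33 and 183.53 TPM and Tmem176a at 107.05 and 129.12 TPM, the order of the media being the same for both and opposite to that of Col4a1 and Col4a2. Ly6a, Ly6c1 and Ly6c2 lay together on chromosome 15, and Hoxa5 and Hoxa7 9904 bases apart on chromosome 6. The kit does not keep the strand of a read, and 65 members overlapped a gene on the opposite strand, so that reads of such pairs cannot be told apart where they overlap.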

How the data were processed

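RNA was measured in 7 libraries, 1 per group, made from TRIzol RNA with the TruSeq RNA v2 kit and sequenced on a MiSeq. The authors processed the reads with RSEM, and the submitters' processing notes name Bowtie and mm10, without versions. Expected counts, as deposited, are reads estimated per Ensembl gene by RSEM and are not normalized. The deposited TPM and FPKM were computed by the authors from these counts and the effective lengths; FPKM was used only in an alternative. Groups came from the labels, the day of sorting from the study's methods.

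Differences were taken on log2(TPM + 1), which understates changes of low genes, and a gene was called past 2-fold if it had at least 1 TPM in either library. Ratios of TPM carry exact Clopper-Pearson 95% intervals from counts rounded to whole numbers. Floors for genes without reads are the TPM of 3 counts. These cover counting error only. No model was fitted. The members and the gene lists were chosen with earlier results of these data known. Genes named were the 20 highest scores, up to 5 members and 3 non-members per role list, the 6 largest differences each way, those at the edge of the set, the 6 with the largest remainder, and neighbours within 200 kb, of which those that show each group were described; family members, Fos, Myc, Nanog, Xist and other genes outside these were named after their values were seen. Of 21 role lists, 14 held a member, with 35 members in at least 1 list and 115 in none. The other marker lists, for pluripotent, cartilage and bone, fat, neural and erythroid cells, held no member. Of 29267 genes, 28756 matched GENCODE M21, all members among them. The work ran in Python 3.11.15 with pandas 2.3.3 and numpy 2.4.6; intervals came from scipy 1.17.1 and plots from matplotlib 3.10.9.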

Additional observations from a re-analysis of the deposited data

How the results depend on the processing

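The genes were chosen again under 12 alternatives. With the mean of the other 5 libraries in place of the largest, 98 of the 150 genes were shared, and with 5C-Oct4GFP+ left out, 97; the other alternatives shared 107 to 144. The number past 2-fold higher in 5C-Oct4GFP- cells was 10 with the mean, 11 without 5C-Oct4GFP+ and 1 with median-ratio rescaled TPM; for the same members it was 6 at 1.5-fold and 0 at 4-fold. The number past 2-fold higher in mES-Oct4GFP- cells was 75 at 1.5-fold and 10 at 4-fold and was otherwise within 1.5 times of 48. The median difference between the Oct4GFP- libraries was negative under every alternative, from -0.62 to -0.40. The number of matrix genes was 12 with the mean and 14 without R1 ESCs-primed. Members under 1 TPM in all other libraries numbered 20 with a minimum of 5 TPM, 24 with no minimum, and 2 with a minimum of 20 TPM or with FPKM. At 500 kb, 44 members had a neighbour. The cause of these shifts was not tested, except that a smaller or larger fold, minimum or distance passes more or fewer genes by construction. Median-ratio scaling moved the median of all genes by -0.022. No paired analysis was possible because each group holds 1 library. Motif counts on the forward strand alone and protein features were not run. With 1 library a group, depth limits only the counting error, and the spread between cultures is unknown.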
